A study of Mus musculus with 24 samples.

Results

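Pachytene piRNA clusters are the long genomic stretches from which the most abundant PIWI-interacting RNAs of the adult mouse testis are cut. The files list 214 piRNA clusters, of which 100 carry the pachytene class in their name, and 84 of these 100 are described here; the other 16 were left out by the rule that defined the set and are not named. The rule goes by cluster names and uses no measured value, but it was set with earlier results of these data known. Of the 84 clusters, 79 are named by chromosome band and 5 after a gene. Some of those named by band still overlap genes, such as 10-qB4-6488.1, of which the protein-coding gene Stox1 covers 85.2%. Small RNA was counted per cluster in 12 libraries of enriched pachytene spermatocytes or round spermatids, 2 for each cell type and genotype. The genotypes were wild type, DDX4 heterozygous knock-in and DDX4 homozygous knock-in, where DDX4 is the DEAD-box RNA helicase of germ granules, and the labels do not describe the knock-in allele further. RNA was measured in 6 round spermatid libraries, 2 per genotype, and in 6 libraries labelled CB, 3 heterozygous and 3 homozygous. What CB stands for is not stated, and the cell type given for those 6 libraries is germ cells; a wild-type CB library was not analysed here. All samples came from testis dissociated by digestion. Nothing in the labels ties the numbered libraries of a group to separate animals, so p-values measure only the spread between these samples, and that spread may be technical.

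Pachytene clusters are transcribed by RNA polymerase II from meiotic prophase onward, driven by the transcription factor A-MYB (gene Mybl1), often in both directions from a shared promoter. The long single-stranded transcripts are exported to germ granules, where nucleases cut them and load the fragments, which mostly start with uridine, into the PIWI proteins MILI (Piwil2) and MIWI (Piwil1). Prepachytene clusters, by contrast, mostly overlap the 3′ parts of protein-coding transcripts and are already in use before meiosis, and hybrid clusters lie between these classes.

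The starts of annotated genes at the ends of these clusters are shown first, because they hold the sequence element that the A-MYB DNA-binding domain recognises. RefSeq (GRCm38.p6, the mouse build also called mm10) has 28 genes whose transcription starts within 200 bases of an end of one of 28 of the 84 clusters and runs into it. In each, the window from 250 bases before to 50 bases after the start was searched on both strands for 4 forms of the MYB element: the word CAACTG itself, the form TAACTG with another first base, the form CAACGG with another base before the last, and the form TAACGG with both. At least 1 element was present at 23 of the 28 genes (82.1%), against 28.2% of the 27025 genes with a promoter sequence. At least 2 were present at 12 (42.9%), against 5.19% of all genes. A match describes letters and does not show a bound site. In 4 of the 5 sequences below the elements, in capitals, number 2 or more; each runs 5′ to 3′ along the gene. Gm10505 starts at the left end of 17-qA3.3-26735.1 (chr17:27324946-27325245, plus strand) and has 1 element. The other windows lie on the minus strand: Gm10619 at 7-qD2-24830.1 (chr7:73816454-73816753, 3 elements), 4933440M02Rik at 7-qF3-3125.1 (chr7:125349737-125350036, 4 elements), 1700008K24Rik at 17-qC-935.1 (chr17:49113484-49113783, 3 elements) and 1700020N18Rik at 1-qD-2017.1 (chr1:91405980-91406279, 2 elements).
Gm10505: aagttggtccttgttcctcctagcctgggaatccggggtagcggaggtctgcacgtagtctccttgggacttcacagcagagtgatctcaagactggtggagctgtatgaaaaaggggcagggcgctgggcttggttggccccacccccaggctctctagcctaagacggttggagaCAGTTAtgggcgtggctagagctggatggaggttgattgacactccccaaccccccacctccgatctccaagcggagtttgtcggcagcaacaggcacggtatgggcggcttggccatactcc
Gm10619: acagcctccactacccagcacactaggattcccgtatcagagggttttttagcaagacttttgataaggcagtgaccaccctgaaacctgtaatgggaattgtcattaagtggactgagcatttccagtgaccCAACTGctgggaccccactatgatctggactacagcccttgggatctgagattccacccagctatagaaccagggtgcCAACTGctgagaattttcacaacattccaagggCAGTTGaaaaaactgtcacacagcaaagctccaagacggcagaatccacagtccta
4933440M02Rik: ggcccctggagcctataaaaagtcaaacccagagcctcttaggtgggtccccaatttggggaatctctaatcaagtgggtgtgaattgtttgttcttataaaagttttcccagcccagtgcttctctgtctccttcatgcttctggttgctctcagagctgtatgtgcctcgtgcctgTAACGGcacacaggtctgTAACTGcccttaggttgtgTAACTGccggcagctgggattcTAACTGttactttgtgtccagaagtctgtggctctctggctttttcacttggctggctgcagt
1700008K24Rik: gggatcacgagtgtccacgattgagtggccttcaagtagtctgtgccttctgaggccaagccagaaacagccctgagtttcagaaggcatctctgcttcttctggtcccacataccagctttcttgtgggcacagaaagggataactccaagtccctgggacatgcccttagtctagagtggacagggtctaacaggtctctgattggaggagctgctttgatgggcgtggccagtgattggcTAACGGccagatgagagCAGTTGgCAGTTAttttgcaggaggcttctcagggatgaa
1700020N18Rik: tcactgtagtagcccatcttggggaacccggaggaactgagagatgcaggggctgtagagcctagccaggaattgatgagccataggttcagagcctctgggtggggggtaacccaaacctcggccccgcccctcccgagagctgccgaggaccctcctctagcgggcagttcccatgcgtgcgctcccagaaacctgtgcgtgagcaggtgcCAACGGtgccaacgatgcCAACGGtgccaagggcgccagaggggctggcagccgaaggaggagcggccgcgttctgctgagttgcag

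Annotated miRNAs also lie inside these clusters, and are shown because their strands tell how neighbouring clusters are annotated. RefSeq places 28 mature miRNAs of 16 genes inside 11 of the 84 clusters; they are 17 to 27 bases long, have 28 distinct seeds, and start with U in 57.1% of cases, against 41.3% of all 1738 mature mouse miRNAs. Their own reads were not separated in these files. The sequences below come from the pair of neighbours on chromosome 17, 17-qA3.3-27363.1 on the left and 17-qA3.3-26735.1 on the right, with the seed (bases 2 to 8) in capitals. The first lies on the minus strand of the left cluster (chr17:27317035-27317058), and the other four on the plus strand of the right cluster, the first of them at chr17:27328385-27328408.
mmu-miR-7214-3p: cUCAGUCCugaccccuugagcgca
mmu-miR-7216-5p: uGGAGAGCuggcagaggacccaga
mmu-miR-7216-3p: uGGAAUUUggucuuuuccggc
mmu-miR-7217-3p: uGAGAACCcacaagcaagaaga
mmu-miR-7218-5p: uGCAGGGUuuaguguagaggg

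Before the comparisons, the libraries were set against their labels. The 2 libraries of a group had nearly the same profile over the 84 clusters: the median absolute log2 ratio between them was 0.03 to 0.04 in 5 groups and 0.12 in the libraries labelled homozygous spermatids. Between groups the profiles did not sort by cell type. The libraries labelled heterozygous spermatocytes lay nearest those labelled wild-type spermatids (0.11, with at most 1 cluster more than 1.5-fold apart in any pair of libraries). Those labelled homozygous spermatocytes lay nearest heterozygous spermatids (0.09, with 2 to 3 clusters past 1.5-fold), and wild-type spermatocytes nearest homozygous spermatids (0.17, with 8 to 14). The other 12 pairs of groups were 0.24 to 0.39 apart. Over the 125 other clusters with reads in every library, each group labelled spermatids again lay nearest the same spermatocyte group. The distances were 0.12 for heterozygous, 0.16 for wild-type and 0.29 for homozygous spermatids. Only heterozygous spermatids and homozygous spermatocytes were each other's nearest. Heterozygous spermatocytes lay nearest heterozygous spermatids (0.14), and wild-type spermatocytes nearest homozygous spermatocytes (0.17). Small RNA tables hold no marker gene against which cell type or genotype could be checked, so every small RNA group below is the libraries labelled so, and a direction holds only as far as the labels do.

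**Figure D1:**
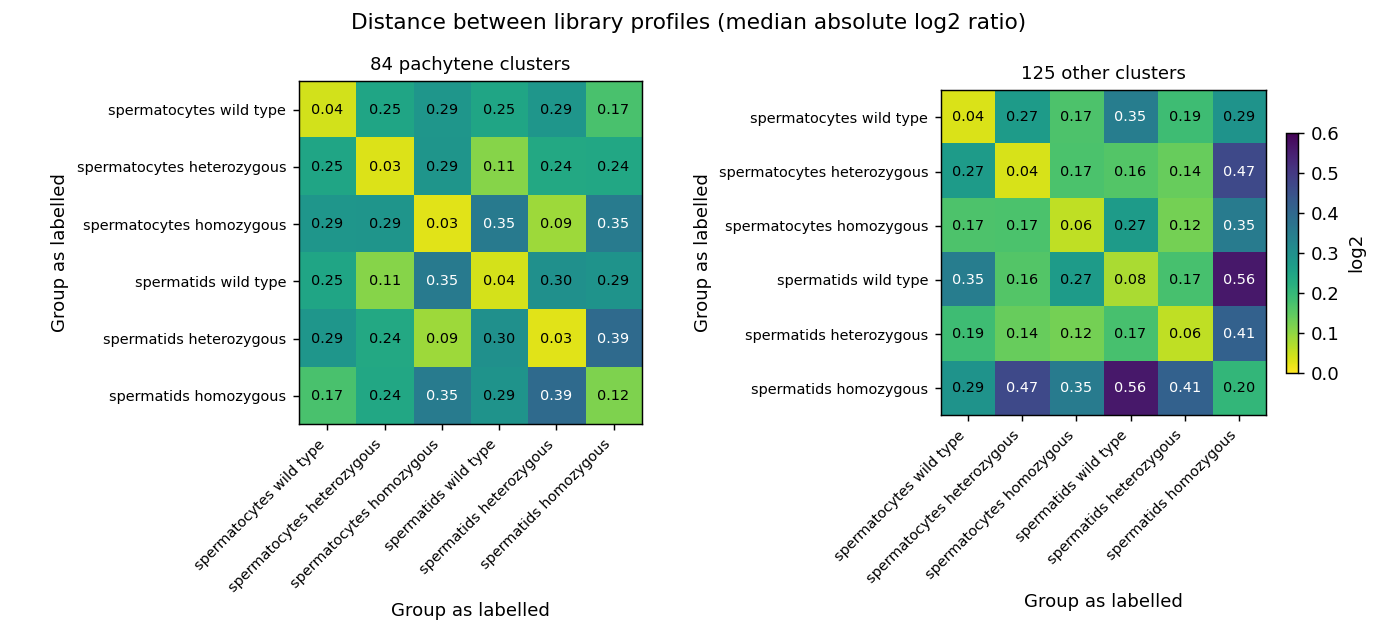
Distance between groups as labelled, as the mean over pairs of libraries of the median absolute log2 ratio of cluster shares (numbers and colour, log2 scale; the diagonal compares the 2 libraries of a group). Over the 84 pachytene clusters the smallest distances off the diagonal are 0.09, 0.11 and 0.17, each joining a spermatocyte group to a spermatid group of another genotype.

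Cluster reads numbered 24.2 to 27.3 M in the spermatocyte libraries and 21.7 to 24.1 M in wild-type and heterozygous spermatids, but 11.7 and 9.23 M in homozygous spermatids. Each of the 84 clusters had reads in each of the 12 libraries, with 71 reads as the lowest count. Totals other than cluster reads were not used here, so each value is a share of cluster reads or relative to other clusters, and fewer cells of a type cannot be told apart from less piRNA per cell. The RNA libraries held 14.2 to 24.9 M counts.

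The 84 clusters took most of the reads in every library. Their share was 65.8% and 65.7% in wild-type spermatocytes, 70.1% and 69.8% in heterozygous and 62.1% and 63.6% in homozygous spermatocytes. In spermatids it was 71.0% and 71.7% in wild type, 67.4% and 68.5% in heterozygotes and 60.5% and 61.6% in homozygotes. The share was highest in wild-type spermatids and lowest in homozygous spermatids, and no 2 of the 6 groups overlapped. Prepachytene clusters took 14.1% ± 0.16, 7.39% ± 0.18 and 15.9% ± 1.2 in wild-type, heterozygous and homozygous spermatocytes and 5.47% ± 0.58, 9.98% ± 1.0 and 14.5% ± 0.80 in the same genotypes of spermatids (mean ± SD, n = 2). Their share was lowest in the 3 groups with the highest pachytene share; all shares of a library add up to the same total, so these values are not independent. No test was run on these sums, which are given as a description.

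**Figure D2:**
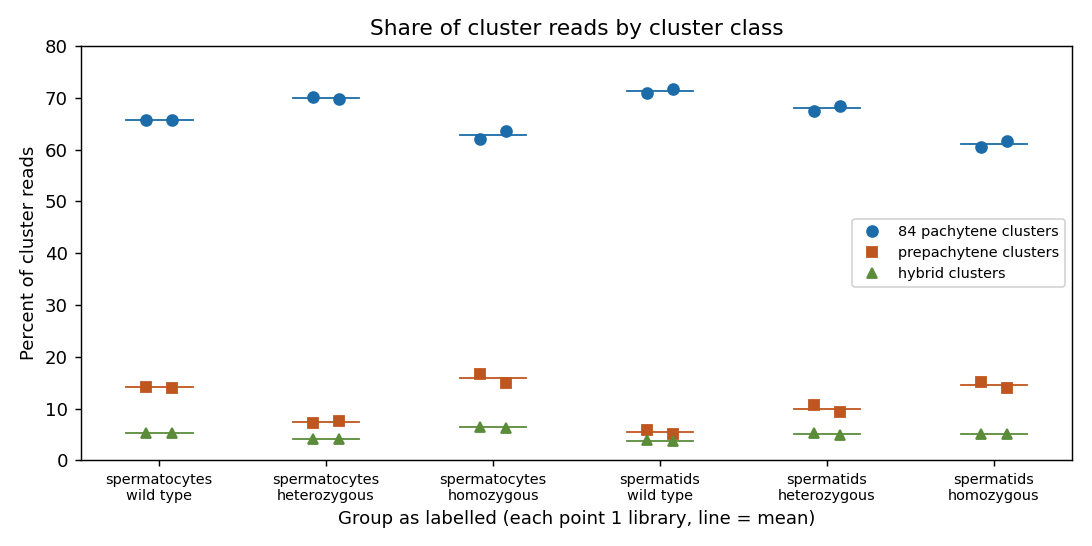
Percent of cluster reads on the 84 pachytene, the prepachytene and the hybrid clusters, by group as labelled; each point is 1 library and each line the mean of 2. The pachytene points run from 60.5% in homozygous to 71.7% in wild-type spermatids.

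Reads were concentrated on few clusters. Between 12 and 14 of the 84 held 50% of the set's reads in every library, and 38 to 43 held 90%. The cluster with the largest mean share was 2-qE1-35981.1 (chr2:92541141-92599077, 57.9 kb), with 4.18% of cluster reads over the 12 libraries and 3.65% to 4.93% in single ones. It was followed by 6-qF3-28913.1 (3.29%), 9-qC-31469.1 (3.05%), 5-qF-14224.1 (3.01%), 5-qG3-23659.1 (2.87%), 17-qA3.3-26735.1 (2.78%), 9-qA5.3-24188.1 (2.53%), 7-qD2-24830.1 (2.49%), 15-qD1-17920.1 (2.45%) and 17-qA3.3-27363.1 (2.22%). The order is that of means over all libraries and differed by group: 2-qE1-35981.1 was first in each of the 6 group means, but in wild-type spermatocytes 17-qA3.3-26735.1 was second (3.77%, against 3.84% for the first), followed by 5-qF-14224.1 (3.50%), 9-qC-31469.1 (3.25%) and 6-qF3-28913.1 (2.80%). Of these 10 clusters, 9 or 10 were among the top 10 of each group. They took 40.6% to 45.4% of the set's reads by group. At the other end, 17-qC-59.1 had the smallest share, 0.00077% to 0.00481%. Between its lowest and highest library a cluster's share varied 1.65-fold at the median, and more than 2-fold in 24 of the 84. The 5 clusters named after genes, pi-Gm5878.1, pi-Arhgap20.1, pi-Wdfy3.1, pi-Tmem194.1 and pi-1700016M24Rik.1, together took 0.801% to 0.989% by group.

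Longer clusters had more reads, but not more per kilobase. The set spans 1994 kb, with a median cluster length of 18 kb. Across the 84 clusters, which share the same libraries, Spearman's rank correlation of length with mean share was 0.58, and of length with share per kilobase -0.13. Share per kilobase ran from 0.000622% to 0.221%, with a median of 0.0255%. The 23 clusters over 30 kb held 57.5% of the length and 55.6% of the set's reads, and the 29 of 15 to 30 kb held 31.9% and 32.0%. The 16 clusters under 5 kb held 2.39% of the length and 4.01% of the reads. The longest cluster, 3-qA2-617.1 (103.5 kb), had 0.209% to 0.503% of cluster reads, and the shortest, 1-qD-2017.1 (1.15 kb), 0.0130% to 0.0256%. Clusters over 30 kb together had 40.7% ± 0.43 of cluster reads in wild-type spermatids, 36.7% ± 0.35 in heterozygous and 33.8% ± 0.26 in homozygous spermatids. Those under 5 kb had 2.52% ± 0.050, 3.14% ± 0.0017 and 2.28% ± 0.0067 in the same groups.

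By chromosome, reads followed length in some cases and not in others. The 11 clusters of chromosome 10 held 11.2% of the set's reads on 11.1% of its length, and the 7 of chromosome 9 held 11.3% on 11.9%. The 6 clusters of chromosome 5 held 12.2% of the set's reads on 6.17% of its length, and the 6 of chromosome 17 held 9.98% on 6.56%. The 7 clusters of chromosome 13 held 14.1% of the length and 3.06% of the reads. Their summed share was 2.65% ± 0.048 of cluster reads in homozygous spermatocytes and 2.49% ± 0.023 in heterozygous spermatids, and 1.62% to 1.86% in the other 4 groups. Chromosome 17 clusters had their highest share, 7.91% ± 0.19, in wild-type spermatocytes, and 5.95% ± 0.30 to 6.89% ± 0.0080 elsewhere.

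Adjacent clusters made up much of the set. With nearest ends within 2000 bases of each other, 22 clusters formed 11 pairs separated by 42 to 180 bases, and these held 49.9% of the set's reads. Annotated miRNAs read away from the gap, though mature miRNAs of the same gene share a strand and are not separate observations. Of the mature miRNAs, 9 lie on the minus strand in 4 left clusters and 8 on the plus strand in 2 right clusters. The RefSeq starts at a cluster end, 3 in left and 1 in right clusters, add nothing to this. The search kept only starts running into the cluster, which set their strand at the gap. In all, 7 pairs have a start or miRNA. Other RefSeq genes run across a gap: Gm40402 between 6-qF3-8009.1 and 6-qF3-28913.1, Gm36617 between 15-qD1-17920.1 and 15-qD1-4001.1, and C2cd4b between 9-qC-31469.1 and 9-qC-10667.1. The strand of the cluster reads is not in these files. Within a pair, the ratio of left to right reads was not constant, and in 7 of 11 pairs its highest value over the libraries was more than 1.5 times its lowest. The pair with the most reads, 17-qA3.3-27363.1 and 17-qA3.3-26735.1, had mean ratios by group between 0.699 in homozygous spermatocytes and 0.915 in wild-type spermatids. For 5-qF-14508.1 over 5-qF-14224.1 the ratio was 0.435, 0.621 and 0.845 in wild-type, heterozygous and homozygous spermatocytes. In the same genotypes of spermatids it was 0.538, 0.862 and 0.426. For 9-qC-31469.1 over 9-qC-10667.1 it was 2.96, 2.29 and 1.66 in spermatocytes and 2.44, 1.64 and 2.25 in spermatids, in the same order of genotypes. So both arms were present in every group while the balance between them moved. The pair 4-qB3-639.1 and 4-qB3-277.1 kept the narrowest range, 1.05 to 1.16 over the 12 libraries, and 10-qB5.1-5404.1 over 10-qB5.1-221.1 the widest, 4.47 to 13.2.

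Among all 3486 pairs of the 84 clusters, those with the most similar profile were picked by the spread (SD) of the log2 ratio of their shares over the 12 libraries, whose median was 0.379. The pairs 15-qD1-17920.1 with 8-qC5-2209.1 (SD 0.0436) and 6-qF3-28913.1 with 14-qA3-3095.1 (0.0466) lie on different chromosomes. The pair 14-qC1-1261.1 and 14-qC1-1010.1 (0.0470) lies 169 kb apart between starts and had nearly equal reads, with a mean ratio of 1.05. The same held for 8-qA4-155.1 and 8-qA4-332.1 (0.0498, mean ratio 1.00, 11.8 kb apart). These pairs were chosen after their values were seen and carry no test. For clusters with near-equal reads, the counting of reads that match several clusters matters; the sources used here do not state it.

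In the comparisons below, a change is the log2 difference between 2 groups minus that of the median of all 214 clusters, so it depends on how the other clusters moved, and the plain share of cluster reads is given beside it. The test is edgeR's quasi-likelihood test with Benjamini-Hochberg adjustment over the 214 clusters and a threshold of 0.05. It was run on the change before the median was subtracted; where the direction of many calls depends on that step, both counts are given. In the 9 comparisons of 2 groups the median cluster itself moved by -0.21 to 0.35 (log2) after edgeR's scaling. Most of the 214 clusters passed the test in 9 of the 10 comparisons, so counts of calls are read against that background. Most comparisons share libraries with others, so their values are given side by side and not related to each other.

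Comparing wild-type round spermatids with wild-type spermatocytes asks how the clusters differ between these stages. Most of the 84 clusters were higher in spermatids relative to the median cluster: 69 were higher and 8 lower among 77 that passed the test (91.7%), against 86.4% of all 214 clusters, with a median of 0.34 over the 84 and -1.10 over prepachytene clusters. Before the median was subtracted 71 were higher and 6 lower. As a plain share of cluster reads, 48 had a higher and 36 a lower mean in spermatids. The cluster 10-qA3-143.1 had 0.00706% and 0.00708% of cluster reads in spermatocytes and 0.0159% and 0.0176% in spermatids, a change of 1.47 (SE 0.12, adjusted p = 1.23e-07). For 7-qD1-9417.1 the change was 0.85 (SE 0.060, adjusted p = 1.76e-08). Lower in spermatids was 10-qC1-117.1, with 0.0682% and 0.0691% in spermatocytes and 0.0289% and 0.0246% in spermatids (change -1.14, SE 0.12, adjusted p = 6.51e-05). The longest cluster, 3-qA2-617.1, fell from 0.358% and 0.394% to 0.217% and 0.209% (change -0.60, SE 0.073). In both of these the 2 groups did not overlap. The other large rises were 13-qA3.1-213.1 (1.21), 6-qC3-2394.1 (0.83), 6-qC3-100.1 (0.81), 9-qC-10667.1 (0.80), 11-qB1.3-590.1 (0.79), 2-qF1-2536.1 (0.74), 7-qD1-16444.1 (0.73) and 1-qD-4525.1 (0.72). The other falls were 9-qF4-150.1 (-0.92), 8-qA4-155.1 (-0.85), 10-qB5.1-221.1 (-0.75) and 8-qA4-332.1 (-0.74). The remaining 2 of the 8, 18-qE1-1295.1 (-0.11) and 10-qB4-6488.1 (-0.00079), are no falls in the test: before the median was subtracted they were higher by 0.21 and 0.31, and the test passed on those rises.

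Homozygous against wild-type round spermatids asks how the clusters differ between these labelled genotypes in the later stage. Relative to the median cluster 72 of the 84 clusters were lower and 4 higher, with a median of -0.46 and a range of -1.70 to 1.64; 76 passed the test (90.5%), against 86.9% of all 214 clusters. The median prepachytene cluster was at 0.93. As a plain share, 54 had a lower and 30 a higher mean in homozygotes, with a median ratio of 0.916, against 1.30 over all clusters with reads in both groups. When the library size was taken as the total cluster reads, 49 were lower and 12 higher. Past 1.5-fold were 37 of the 84 and past 2-fold 10.

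The largest falls included clusters with few reads and 1 of the 3 with the most. In 10-qA3-143.1 the share was 0.0159% and 0.0176% in wild type and 0.00688% and 0.00667% in homozygotes (change -1.63, SE 0.12, adjusted p = 1.22e-07). In 13-qA3.1-213.1 it went from 0.0577% and 0.0642% to 0.0273% and 0.0278% (-1.48, SE 0.099, adjusted p = 6.30e-08), and in 17-qC-935.1 from 0.235% and 0.269% to 0.145% and 0.127% (-1.22, SE 0.093). The third-ranked cluster by reads, 9-qC-31469.1, went from 3.94% and 4.02% to 2.52% and 2.61% (-0.97, SE 0.031, adjusted p = 4.86e-10). In none of these did the groups overlap. Also lower were 6-qC3-2394.1 (-1.17), 6-qC3-100.1 (-1.16), 2-qF1-2536.1 (-1.11), 9-qA1-178.1 (-1.04) and 13-qA3.1-355.1 (-0.99). The fall of 17-qC-59.1 (-1.70, SE 0.41, adjusted p = 0.00138) rested on few reads and unlike libraries, 0.00269% and 0.00077% in homozygotes against 0.00481% and 0.00435%; it was -2.92 without homozygous library 1 and -1.07 without homozygous library 2.

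The 4 that rose included pi-1700016M24Rik.1, which overlaps Mroh4: 0.0118% and 0.0112% in wild type against 0.0619% and 0.0276% in homozygotes (change 1.64, SE 0.29, adjusted p = 4.64e-04). Both homozygous libraries were higher, but 1 by far more than the other, and the change was 0.92 without homozygous library 1 and 2.13 without library 2. In 10-qC1-117.1 the share was 0.0289% and 0.0246% against 0.0796% and 0.0663% (1.12, SE 0.12, adjusted p = 1.56e-05). The rises of 7-qF3-246.1 (0.77, adjusted p = 0.0151) and 10-qC2-545.1 (0.41) each lost their call without 1 homozygous library, at 0.27 without library 1 and 0.21 without library 2. Of the other clusters named after genes, pi-Gm5878.1 was lower (-0.57, adjusted p = 5.92e-06). The change of pi-Wdfy3.1 was -0.24 relative to the median cluster (adjusted p = 0.00199), although its plain share was 0.0686% and 0.0644% in wild type and 0.0740% and 0.0671% in homozygotes. The clusters pi-Arhgap20.1 (0.11, adjusted p = 0.932) and pi-Tmem194.1 (0.04, adjusted p = 0.470), which overlaps the gene now called Nemp1, did not pass.

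The falls were spread over lengths and chromosomes. Lower were 14 of 16 clusters under 5 kb, 14 of 16 of 5 to 15 kb, 24 of 29 of 15 to 30 kb and 20 of 23 over 30 kb, with medians of -0.62, -0.45, -0.44 and -0.45. The 4 rises lay on chromosomes 7, 10 and 15, and chromosome 10 had the most clusters, 11, with 7 lower and 2 higher. On chromosomes 17 and 6 all 6 and 6 were lower, with medians of -0.79 and -0.76.

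Heterozygous spermatids also differed from wild type. Relative to the median cluster 50 of the 84 were lower and 15 higher, with a median of -0.32; the 65 that passed the test are 77.4%, against 77.1% of all 214 clusters, so the share called was that of the background. Plain shares went the other way for many: 49 had a higher and 35 a lower mean in heterozygotes, with a median ratio of 1.08. In 6-qC3-100.1 the share fell from 0.186% and 0.192% to 0.0787% and 0.0749% (change -1.73, SE 0.088, adjusted p = 3.69e-08), and in 4-qC5-17839.1 from 2.43% and 2.50% to 1.39% and 1.45% (-1.23, SE 0.056). Other falls were 6-qC3-2394.1 (-1.5), 17-qC-59.1 (-1.33) and 6-qD1-2831.1 (-1.17). The share of 13-qA5-208.1 rose from 0.187% and 0.180% to 0.408% and 0.421% (0.74, SE 0.096, adjusted p = 2.46e-05). It was followed by 18-qE1-1295.1 (0.65), 10-qB5.1-221.1 (0.57), 8-qA2-343.1 (0.54) and 10-qC1-117.1 (0.52).

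Homozygous against heterozygous spermatids gave 52 lower and 13 higher clusters, with a median of -0.36; 65 passed the test (77.4%), against 72.4% of all 214. As a plain share 54 were lower and 30 higher. The share of 17-qC-935.1 was 0.405% and 0.404% in heterozygotes and 0.145% and 0.127% in homozygotes (change -1.76, SE 0.094, adjusted p = 4.98e-08), with 10-qA3-143.1 (-1.74), 13-qA3.1-213.1 (-1.62), 9-qA1-178.1 (-1.43) and 13-qA3.1-355.1 (-1.37) next. In 7-qF3-3125.1 it was 0.0422% and 0.0406% against 0.145% and 0.0888% (1.32, SE 0.19, adjusted p = 4.36e-05). Also higher were pi-1700016M24Rik.1 (1.5), 7-qF3-246.1 (0.93), 13-qA5-967.1 (0.65) and 14-qA3-2286.1 (0.51). Of these, pi-1700016M24Rik.1 was at 0.77 and 7-qF3-246.1 at 0.43 without homozygous library 1, and with 1 library left out their highest values were 2.01 and 1.34.

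In pachytene spermatocytes of the homozygous knock-in the clusters moved in both directions. Against wild type 33 of the 84 clusters were higher and 27 lower relative to the median cluster (42 higher and 18 lower before it was subtracted, and 15 higher and 38 lower with median-of-ratios size factors), with a median of -0.12; 60 passed the test (71.4%), against 68.2% of all 214. Plain shares were higher in 45 and lower in 39. In 10-qA3-143.1 the share was 0.00706% and 0.00708% in wild type and 0.0170% and 0.0177% in homozygotes (change 1.13, SE 0.12, adjusted p = 1.36e-06). Further rises were 13-qA3.1-213.1 (1.01), 9-qA1-178.1 (0.79), 17-qA3.3-352.1 (0.72) and 13-qA5-208.1 (0.72). The abundant 5-qF-14224.1 fell from 3.53% and 3.47% to 2.07% and 2.07% (-0.92, SE 0.035, adjusted p = 5.83e-08), and 13-qA5-967.1 from 0.190% and 0.181% to 0.103% and 0.102% (-1.02, SE 0.083). Further falls were 14-qA3-2286.1 (-0.84), 15-qD1-4001.1 (-0.77) and 6-qC3-2394.1 (-0.75).

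Heterozygous spermatocytes against wild type gave 66 higher and 8 lower clusters, with a median of 0.29; 74 passed the test (88.1%), against 80.4% of all 214. Plain shares were higher in 45 and lower in 39, and with total cluster reads as the library size 42 were higher and 13 lower. The share of 10-qA3-143.1 was 0.0146% and 0.0153% in heterozygotes (change 1.33), and 13-qA3.1-213.1 (1.01), 7-qF3-246.1 (0.88), 1-qD-4525.1 (0.81) and 4-qD2.2-2182.1 (0.79) followed. In 10-qC1-117.1 it was 0.0339% and 0.0355%, below both wild-type libraries (-0.73, SE 0.12, adjusted p = 0.00114). The other falls were 13-qA5-967.1 (-0.59), 8-qA4-155.1 (-0.61), 8-qA4-332.1 (-0.51) and 10-qB5.1-221.1 (-0.48).

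Homozygous against heterozygous spermatocytes gave 58 lower and 11 higher clusters (51 and 18 before the median was subtracted), with a median of -0.68; 69 passed the test (82.1%), against 84.1% of all 214, so the share called was no larger than in the background. Plain shares were lower in 47 and higher in 37. The share of 4-qC5-17839.1 was 2.31% and 2.21% in heterozygotes and 1.19% and 1.24% in homozygotes (change -1.52, SE 0.056, adjusted p = 1.49e-08). The falls of 6-qC3-2394.1 (-1.55), 6-qC3-100.1 (-1.45), 6-qF3-8009.1 (-1.44) and 19-qC2-1361.1 (-1.39) were of like size. Rises were smaller: 13-qA5-208.1 (0.56), 10-qB5.1-221.1 (0.54), 10-qC1-117.1 (0.46), 17-qC-935.1 (0.43) and 3-qA2-617.1 (0.34).

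The same stages were compared within the knock-in genotypes. In heterozygotes 36 clusters were lower and 18 higher in spermatids, with a median of -0.22; 54 passed the test (64.3%), against 48.6% of all 214. Plain shares were higher in 51 and lower in 33, and the call split moved to 16 lower and 21 higher without heterozygous spermatocyte library 1. The share of 17-qC-935.1 was 0.197% and 0.193% in spermatocytes and 0.405% and 0.404% in spermatids (change 0.75, adjusted p = 2.11e-05), and that of 6-qC3-100.1 0.150% and 0.153% against 0.0787% and 0.0749% (-1.28, adjusted p = 9.03e-07). Other changes were 18-qE1-1295.1 (0.70), 13-qA5-208.1 (0.69), 1-qD-2017.1 (0.61) and 7-qD1-654.1 (0.52), and 6-qC3-2394.1 (-1.10), 4-qC5-17839.1 (-0.97), 6-qD1-2831.1 (-0.95) and 7-qD1-9417.1 (-0.87).

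In homozygotes 33 clusters were higher and 32 lower in spermatids (23 higher and 42 lower before the median was subtracted, 45 higher and 21 lower with size factors), with a median of 0.07; 65 passed the test (77.4%), against 76.2% of all 214. Plain shares were higher in 35 and lower in 49. The rises were led by pi-1700016M24Rik.1, with 0.0125% and 0.0133% in spermatocytes and 0.0619% and 0.0276% in spermatids (1.97, SE 0.29, adjusted p = 2.75e-04). After it came 7-qF3-3125.1 (1.57), 7-qF3-246.1 (1.45), 14-qA3-2286.1 (1.20) and 13-qA5-967.1 (1.01). With 1 library left out, the change of pi-1700016M24Rik.1 ran from 1.29, without homozygous spermatid library 1, to 2.42, and that of 7-qF3-246.1 from 0.99 to 1.79. The share of 17-qC-935.1 fell from 0.406% and 0.408% to 0.145% and 0.127% (-1.42, SE 0.093, adjusted p = 6.81e-08). Also lower were 10-qA3-143.1 (-1.20), 13-qA3.1-213.1 (-1.18), 3-qA2-617.1 (-1.08) and 9-qA1-178.1 (-1.04).

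Whether the homozygous change differed between the cell types was tested directly, as the change in spermatids minus that in spermatocytes. It was lower in spermatids for 66 clusters and higher for 10, with a median of -0.54; 76 passed the test (90.5%), against 79.9% of all 214. The difference was -2.91 (SE 0.17, adjusted p = 1.85e-08) for 10-qA3-143.1, whose share rose in spermatocytes and fell in spermatids, and -2.63 for 13-qA3.1-213.1. It was 2.15 (SE 0.40, adjusted p = 0.00157) for pi-1700016M24Rik.1, and 1.41 without homozygous spermatid library 1. Over the 84 clusters, 30 had a positive change in spermatocytes and a negative one in spermatids, and 45 had the same sign in both. Pearson's r between the 2 sets of changes, which share no library, was -0.16 over the 84 clusters, as a description.

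**Figure D3:**
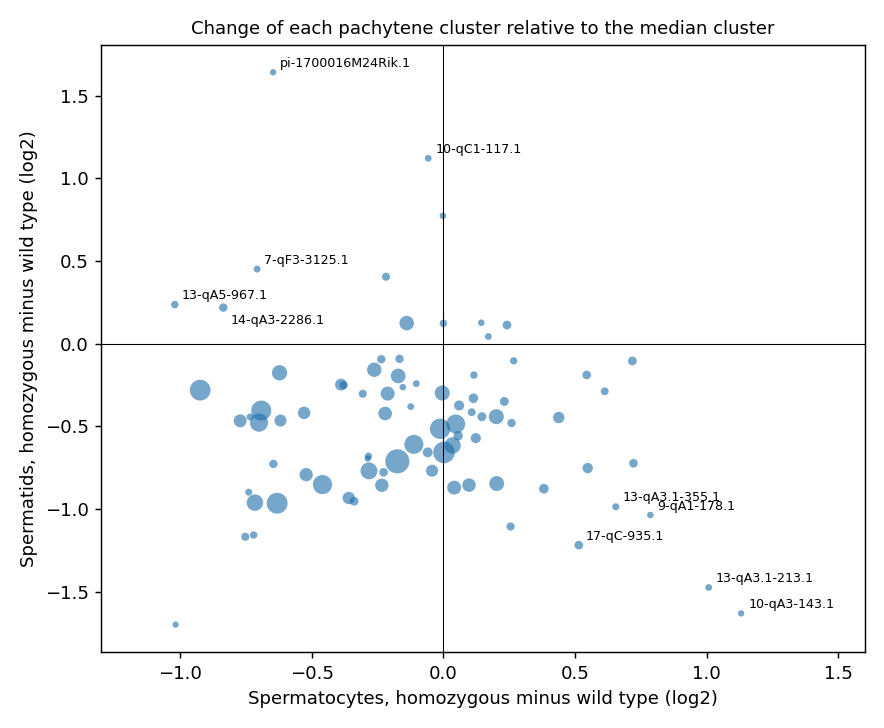
Change of each of the 84 pachytene clusters in homozygous against wild-type libraries (log2, relative to the median cluster), in spermatocytes on the x axis and in spermatids on the y axis; point area grows with the cluster's mean share, and the clusters with the largest difference between the axes are named. Most points lie below 0 on the y axis, to either side of 0 on the x axis, with 10-qA3-143.1 and 13-qA3.1-213.1 at the lower right.

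Long RNA was then examined at the same places. The targeted gene, Ddx4, had 482 ± 55.1 CPM (counts scaled to library size) in wild-type, 405 ± 2.68 in heterozygous and 125 ± 6.15 in homozygous spermatid RNA (mean ± SD, n = 2; log2 -1.95 against wild type, SE 0.12, adjusted p = 0.00543, edgeR's quasi-likelihood test over 17809 genes). In CB RNA it had 318 ± 44.0 CPM in heterozygotes and 284 ± 35.1 in homozygotes (n = 3; log2 -0.16, adjusted p = 0.649). RefSeq places 95 genes at 62 of the 84 clusters with at least 50% of their span inside one, or named by it. They comprise 49 lncRNAs, 17 miRNA genes, 16 pseudogenes and 10 protein-coding genes, and 68 matched an identifier of the RNA tables. The strand of the spermatid libraries is not stated, and the strand of the clusters is not in the files, so RNA of such a gene is not shown to be piRNA precursor.

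In homozygous against wild-type spermatids 39 genes at the clusters were tested, and 5 passed, all higher, against 2.86% of the 17809 genes; 15 of the 39 (38.5%) passed without adjustment, against 22.7% of all genes. The median change was 0.13 (log2) over the 39 and 0.00 over all genes. The lncRNA 1700029M20Rik, which covers 4-qD3-2082.1, had 116 and 109 CPM in wild type, 150 and 144 in heterozygotes and 258 and 256 in homozygotes (log2 1.20 against wild type, adjusted p = 0.00978, edgeR). Gm5878, at pi-Gm5878.1, had 6.65 and 6.99, 7.94 and 8.19, and 16.0 and 16.4 CPM in the same order (1.25, adjusted p = 0.0173). Neither gene had overlapping groups, and the heterozygous libraries lay between the others. The rest were 4933440M02Rik at 7-qF3-3125.1 (31.7 ± 1.15 to 54.7 ± 2.98 CPM, log2 0.79, adjusted p = 0.0380), 4932702P03Rik at 13-qA3.1-355.1 (21.3 ± 1.71 to 41.9 ± 3.12 CPM, 0.97) and D130017N08Rik at 5-qG2-2301.1 (5.38 ± 0.335 to 10.3 ± 0.328 CPM, 0.94). Against heterozygotes 3 of the 39 passed, all higher, against 1.73% of all genes: D130017N08Rik (1.35, adjusted p = 0.0269), Gm5878 (1.01) and 1700029M20Rik (0.81). The gene 1700020N18Rik, at the shortest cluster, had 18 and 9.05 CPM in wild type and 34.5 and 31.9 in homozygotes but did not pass (1.30, adjusted p = 0.0874). The number of calls over all genes depended on single libraries. Without homozygous library 1 or library 2, which leaves that group with 1 library, no gene of the whole table passed in either comparison, nor against heterozygotes without either heterozygous library. The changes themselves moved little with 1 library left out: against wild type that of 1700029M20Rik ran from 1.16 to 1.24, that of Gm5878 from 1.21 to 1.29 and that of D130017N08Rik from 0.89 to 1.00. Without wild-type library 1, which stood apart, 13 passed against wild type (10 higher and 3 lower), where 26.4% of all genes did, and 17 against heterozygotes (12 higher and 5 lower), where 30.1% did. Without wild-type library 2, 22 passed against wild type (13 higher and 9 lower), beside 45.1% of all genes.

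The RNA and the piRNA of a place were set side by side. Among the 39 genes, homozygous against wild type, 18 had a positive RNA change beside a negative cluster change, 12 both negative, 5 both positive and 4 the reverse. With 23 of 39 RNA changes positive and 30 of 39 cluster changes negative, opposite directions in 21.4 genes follow from these margins alone. In this comparison 22 were found, near that number. A count of signs ignores the size of the changes and repeats a cluster shared by several genes. It cannot tell whether RNA and piRNA changes are related. Homozygous against heterozygous, 21 genes had a positive RNA change beside a negative cluster change, 6 both negative, 6 both positive and 6 the reverse. Opposite directions were found there in 27 genes, against 22.4 from the margins. That difference was not tested. At 13-qA3.1-355.1 the RNA change was 0.97 (4932702P03Rik) and the cluster change -0.99, at 4-qD3-2082.1 1.20 (1700029M20Rik) and -0.56, at pi-Gm5878.1 1.25 and -0.57, and at 5-qG2-2301.1 0.94 (D130017N08Rik) and -0.48. At 7-qF3-3125.1 both were positive, 0.79 (4933440M02Rik) and 0.45, the latter with adjusted p = 0.118 (edgeR). The RNA and small RNA libraries were separate, and each change is relative to its own library.

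In CB RNA, homozygous against heterozygous, 49 genes at the clusters were tested and 7 passed, all higher, against 1.72% of 19335 genes; 26 (53.1%) passed without adjustment, against 14.5% of all genes. A positive change was found in 40 of the 49 (81.6%), against 49.3% of all genes, and the median was 0.28, against -0.0048 over all genes. The lncRNA 4933440M02Rik had 157, 170 and 160 CPM in heterozygotes and 301, 290 and 316 in homozygotes (log2 0.90, SE 0.096, adjusted p = 0.00235, edgeR). Gm10505, whose promoter is printed above, had 122, 122 and 126 against 192, 190 and 198 CPM (0.64, SE 0.091, adjusted p = 0.00773). In each the groups were well apart. Mif, the gene of a secreted cytokine that lies inside 10-qC1-12816.1 and covers 3.83% of it, had 13.8 ± 1.23 against 28.2 ± 2.65 CPM (1.03, adjusted p = 0.00483). The others were Aym1 inside 5-qF-14224.1 (0.93, adjusted p = 0.00728), Arhgap20 at pi-Arhgap20.1 (0.63, adjusted p = 0.0132), Gm21388 at 3-qA3-2052.1 (0.50) and M5C1000I18Rik inside 9-qC-10667.1 (0.50). Without heterozygous CB library 1, 25 passed (21 higher and 4 lower), where 2213 of all 20033 genes did. Without any other single CB library 2 to 4 passed, beside 0.256% to 0.650% of all genes. Summed marker genes moved with the genotype in these libraries: Leydig markers (5 of 5 measured) had 144, 136 and 146 CPM in homozygotes against 70.1, 122 and 122 in heterozygotes, and macrophage markers (4 of 4) 8.74, 10.2 and 8.87 against 3.73, 7.65 and 6.94. Round spermatid markers (9 of 9) were lower, at 1064, 1071 and 1107 against 1867, 1395 and 1253 CPM. In none of these did the groups overlap, and their part in the RNA changes was not tested.

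**Figure D4:**
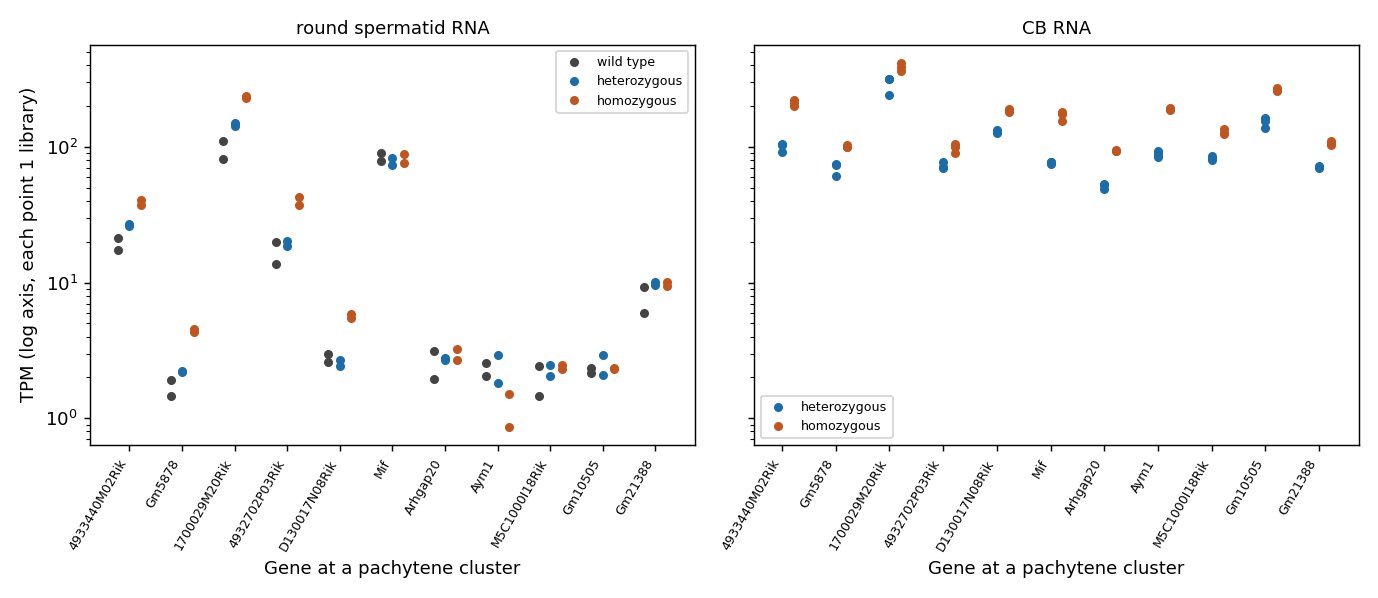
RNA level (TPM, log axis) of the genes at pachytene clusters that passed the test in any RNA comparison, in round spermatid libraries on the left and CB libraries on the right; each point is 1 library, coloured by genotype. In the CB libraries the homozygous points lie above the heterozygous points for each gene shown on this scale (in CPM those of 4932702P03Rik overlap, at 60.2 to 66.1 against 47.6 to 62.8), and in spermatids they do so for the first 5 genes, from 4933440M02Rik to D130017N08Rik.

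Per length, the 5 most abundant genes at the clusters in spermatid RNA were 1700008K24Rik, Mroh4, Gm2762, 1700029M20Rik and 1700020N18Rik, with means of 824, 471, 283, 159 and 97.3 TPM (scaled for gene length and library size). In CB RNA they were Mroh4, Gm2762, 1700029M20Rik, 1700020N18Rik and Gm14244, with 661, 376, 341, 227 and 212 TPM, and 1700008K24Rik came seventh. Mroh4, at pi-1700016M24Rik.1, was at 207 TPM in wild-type spermatid library 1 and at 482 to 572 in the other 5 spermatid libraries. The level of 1700008K24Rik, which covers 17-qC-935.1, was 759 to 894 TPM in spermatids and 157 to 225 in CB RNA. Other genes had the reverse order. Gm10505 was at 2.10 to 2.91 TPM in spermatids and 139 to 270 in CB RNA, and Gm10619 at 0.570 to 1.18 and 113 to 180. The 2 kinds of library differ in kit and RNA selection, so this contrast between them carries no test.

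Of the 25 genes of the pachytene piRNA pathway that were counted as a list, all were measured. In homozygous against wild-type spermatids 2 of the 25 passed, both higher, beside the 2.86% of all genes, with a median of -0.03: Piwil2, the gene of MILI, from 25.6 ± 5.71 to 59.9 ± 4.32 CPM (log2 1.23, adjusted p = 0.0312, edgeR), and Tdrd1, a Tudor-domain scaffold of germ granules (1.15, adjusted p = 0.0337). Mybl1 had 29.1 ± 6.11 and 24.6 ± 1.96 CPM (-0.24, adjusted p = 0.497). None passed against heterozygotes. In CB RNA Henmt1, the methyltransferase of piRNA 3′ ends, was higher in homozygotes (37.0 ± 2.79 to 53.0 ± 2.12 CPM, 0.52, adjusted p = 0.0389), and the other 24 did not pass, beside the 1.72% of all genes.

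Marker genes of cell types moved with some of these groups. In spermatid RNA the 9 round spermatid markers summed to 20642 CPM in wild-type library 1 and to 9238 to 10129 in the other 5, and the 8 spermatocyte markers to 376 and 373 CPM in homozygotes against 300 to 340 elsewhere. Low sums of other types also differed: 4 measured Sertoli markers of 7 had 14.2 and 15.1 CPM in homozygotes against 24.4 to 25.9, 4 Leydig markers of 5 had 15.6 and 14.7 against 5.18 to 8.67, and 4 macrophage markers of 4 had 19.7 and 19.3 against 6.38 to 16.5. The 6 spermatogonia markers had 59.3 to 73.0 CPM. In CB RNA heterozygous library 1 had the lowest sum of spermatocyte markers, 748 CPM against 1059 to 1368 in the others, and the lowest of spermatogonia markers, 46.7 against 79.6 to 95.5. Sertoli markers (5 of 7 measured) had 69.0 to 73.6 CPM in homozygotes and 58.4, 110 and 101 in heterozygotes. The part of these shifts in the RNA changes was not tested.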

How the data were processed

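For small RNA, the authors deposited a whole number per piRNA cluster and library, taken here as read counts. For RNA, the authors deposited expected counts and TPM per gene, per the file headers. The expected counts were rounded to whole numbers; the TPM values, scaled by the authors for gene length and library size, were used only as levels. Per the submitters' processing notes, Trim Galore and mm10 were used; the aligner, the quantifier, tool versions and the treatment of reads matching several clusters are not given in the sources. Small RNA libraries were made from 200 ng of RNA, spermatid RNA libraries from 1000 ng and CB libraries from 25 ng, the last strand-specific and without polyA selection or ribosome depletion, per the labels' protocols. Isoform tables were not used here. The 84 clusters, the gene lists and the tests were chosen with earlier results of these data known.

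Positions of clusters come from their names (mm10; whether starts count from 0 or 1 is not stated), and genes, promoters and miRNAs from RefSeq (GRCm38.p6). A count was missing 8 times, in 5 clusters outside the set, and was set to 0. The 12 small RNA libraries were fitted together over 214 clusters in edgeR 4.0.16 (R 4.3.3) with TMM factors, filterByExpr and the quasi-likelihood F test, with Benjamini-Hochberg adjustment at 0.05; spermatid and CB RNA were fitted separately over all genes. The script was tested on simulated data. Figures used matplotlib 3.10.9 under Python 3.11.15. Named were the 10 clusters with the most reads, up to 5 rises and 5 falls per comparison among called clusters whose groups did not overlap (up to 10 for homozygous against wild-type spermatids and for wild-type stages; overlap ignored for the difference between cell types), all clusters named after genes, the 3 adjacent pairs with the most reads, the shortest and longest cluster, all called genes and the 5 genes highest in TPM. Alternatives were DESeq2 1.42.0, its size factors, total cluster reads as library size, no filter, the compared libraries alone, a replicate block, and each library left out. The pathway list held genes of transcription, processing and loading of pachytene piRNAs; marker lists covered round spermatids, pachytene spermatocytes, Sertoli cells, Leydig cells, macrophages and spermatogonia.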

Additional observations from a re-analysis of the deposited data

Results flagged for a closer look

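The change of homozygous against wild-type libraries differed between round spermatids and pachytene spermatocytes, by a test of the difference itself (edgeR's quasi-likelihood test over all 12 small RNA libraries), for 76 of the 84 pachytene clusters, against 79.9% of all 214 clusters. The named differences, in spermatids minus spermatocytes on the log2 scale, were 2.15 for pi-1700016M24Rik.1, 1.12 for 13-qA5-967.1, 1.04 for 10-qC1-117.1, 1.02 for 7-qF3-3125.1 and 0.91 for 14-qA3-2286.1. On the other side they were -2.91 for 10-qA3-143.1, -2.63 for 13-qA3.1-213.1, -1.97 for 9-qA1-178.1, -1.88 for 17-qC-935.1 and -1.78 for 13-qA3.1-355.1. The call of 7-qF3-3125.1 was lost without either wild-type spermatocyte library, and the difference of pi-1700016M24Rik.1 ran from 1.41 to 2.60 with 1 library left out. The profiles of these groups over the 84 clusters did not sort by labelled cell type, and what part that has in these differences was not tested.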

How the results depend on the processing

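Of 104 alternative counts of called pachytene clusters, 60 from other settings and 44 from leaving out 1 library, each was within 1.5 times its value in the text; for homozygous against wild-type spermatids they ran from 59 to 79. Single clusters were followed only in comparisons where they were among the called rises or falls named above. They kept their sign and call in 667 of 672 values under other settings and 474 of 488 without 1 library. Because called clusters with large changes were picked, these counts do not describe the other clusters. The sign of 10-qB4-6488.1 between wild-type stages, at 0 in the text, turned to 0.05, 0.0049, 0.11 and 0.02 without each of the 4 libraries, and 17-qC-59.1 lost its call for heterozygous against wild-type spermatids in some alternatives.

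Splits between higher and lower calls depended on the scaling. With total cluster reads as library size, homozygous against wild-type spermatids gave 49 lower and 12 higher, wild-type spermatids against spermatocytes gave 48 higher and 13 lower, heterozygous stages 23 and 30, and the difference between cell types 15 and 48. DESeq2 gave 17 higher and 37 lower for homozygous against wild-type spermatocytes and 46 and 21 for homozygous stages. With only the compared libraries, homozygous against wild-type spermatids gave 5 higher and 54 lower, homozygous against wild-type spermatocytes 28 and 38, heterozygous against wild-type spermatocytes 54 and 15, and the difference between cell types 15 and 40.

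The share of cluster reads on all 100 pachytene clusters was 80.5%, 88.5% and 77.8% in wild-type, heterozygous and homozygous spermatocytes and 90.7%, 84.9% and 80.4% in spermatids. The lowest group was thus homozygous spermatocytes, while for the 84 it was homozygous spermatids. Without the cluster with the most reads, the 84 had 61.9%, 65.3%, 59.0%, 66.5%, 63.8% and 57.3% in the same order.

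Counts of called genes at the clusters were less stable. Against wild-type spermatids, 5 in the text, they were 8 without the filter, 0 with only the compared libraries, and 0 to 22 with 1 library left out. Against heterozygous spermatids, 3 in the text, they were 5 with DESeq2, 6 without the filter, 17 with only the compared libraries and 0 to 17 with 1 library left out. In CB RNA, 7 in the text, they were 15 with DESeq2, 14 without the filter and 2 to 25 with 1 library left out. Calls over all genes moved too, from 0 to 8488 in spermatids and from 51 to 2213 in CB RNA with 1 library left out; the cause was not tested. No named gene changed sign. Size factors for RNA, and leaving out wild-type library 1 where homozygotes met heterozygotes, were chosen after seeing the data.

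Replicate numbers did not pair the libraries: deviations of same-numbered small RNA libraries correlated at -0.34 to 0.37. With a replicate block 76, 66, 65, 62, 75, 70, 76, 47, 62 and 77 clusters were called in the 10 comparisons, in the order spermatids (homozygous and heterozygous against wild type, then homozygous against heterozygous), spermatocytes likewise, stages in wild type, heterozygotes and homozygotes, and the difference between cell types. With the block 2, 0 and 4 genes were called against wild-type spermatids, heterozygous spermatids and in CB RNA.

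With 2 libraries a group, the spread rests on few samples, and depth was least in homozygous spermatids. Small RNA values have no scale outside the clusters, so no absolute loss or gain can be read from them.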
